A study of Mus musculus with 6 samples.

Results

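Genes of ribosome biogenesis and RNA polymerase I were followed in mouse myeloid cells with and without induction of PU.1. The set holds 46 genes, taken by symbol and by role in making ribosomes, with earlier results of these data known. Of these, 44 had a transcript cluster with that 1 gene symbol, out of 22180 genes measured in this way. Fbl (fibrillarin, the methyltransferase of box C/D small nucleolar RNPs) and Tsr1 (a small subunit assembly factor) lay in transcript clusters that carry several symbols and are named only. A transcript cluster is the group of array probes that gives 1 value, and for genes with more than 1 the brightest stood for the gene. The induced group was 3 samples of fetal liver myeloid cells that received 1000 ng/ml doxycycline for 72 hours, which the labels equate with PU.1 expression, and the uninduced group was 3 samples without the drug. Cells of both groups grew in 1 ng/ml GM-CSF, a myeloid growth factor. The labels describe neither the construct nor the strain, and no sample received doxycycline without PU.1 induction, so drug and PU.1 cannot be told apart. Whether replicates came from separate cultures is not stated either, and a p-value here covers no more than the spread of these samples, which may be technical. Each sample was hybridised to 1 array (Affymetrix Mouse Gene 2.0 ST).

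Ribosomes are built in the nucleolus, where RNA polymerase I copies the rDNA repeats into a long precursor rRNA. Small nucleolar RNPs modify that precursor, and the small subunit (SSU) processome and the large subunit assembly factors cut it, fold it and load it with ribosomal proteins. Growing and dividing cells make many ribosomes, and Myc is a known activator of many of these genes. PU.1, the product of Spi1, is an ETS-family factor of myeloid cells.

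Values are log2 expression values as the authors deposited them. Spi1 itself was at 9.13, 9.04 and 9.05 in induced A, B and C, against 8.80, 8.65 and 8.84 in uninduced A, B and C. Its 3 induced values lay above all 3 uninduced ones, but the difference of 0.31 (SE 0.12, limma adjusted p = 0.152) did not pass the test, and whether its transcript cluster detects the induced PU.1 is not stated. The arrays differed in spread: the interquartile range over all 22180 genes was 2.29, 1.88 and 1.93 in induced A, B and C, and 2.31, 2.76 and 2.41 in uninduced A, B and C. Of 10 myeloid markers, 7 were above the range of background on every array (Itgam, Csf2ra, Csf2rb, Elane, Lyz2, Fcgr3 and Cd68), Mpo was above it on some, and Ptprc and Csf1r were within it on all 6. Their mean level was 9.24 to 9.36 in the induced and 8.65 to 8.82 in the uninduced samples, with 4 called higher by limma, and its part in the differences below was not tested. The range of background lies below the 95th percentile of 1394 olfactory and vomeronasal receptor genes, which was 7.05 to 7.99 on the 6 arrays. Of the measured markers of erythroid cells (3), B cells (5), T cells (4), megakaryocytes (3), mast cells (4), hepatocytes (4) and fibroblasts (4), Pax5, Mcpt8 and Apoa1 were above that range on at least 1 array, and no marker was on all 6. The 44 genes lay above that range on all 3 uninduced arrays and on induced A, while 11 of them were within it on induced B and 8 on induced C.

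The DNA just before the start of 4 members is printed to show the motifs that were searched for. The 4 are members with an unadjusted p under 0.05 whose annotated start is at the outer end of the gene. Each holds a match in the 250 bases before that start, and they were picked after their values were seen. The sequences are from RefSeq (GRCm38.p6, the assembly also called mm10) and read from 5′ to 3′ on the strand of the gene. Capitals mark an E-box (CACGTG, a site type of Myc) in Rrn3 and Nop2, GAGGAAGT (an ETS site of the PU.1 type) in Nop14, and TTTGGCGC (an E2F site) on the opposite strand in Ncl.
Rrn3 (chr16:13780449-13780698, plus strand): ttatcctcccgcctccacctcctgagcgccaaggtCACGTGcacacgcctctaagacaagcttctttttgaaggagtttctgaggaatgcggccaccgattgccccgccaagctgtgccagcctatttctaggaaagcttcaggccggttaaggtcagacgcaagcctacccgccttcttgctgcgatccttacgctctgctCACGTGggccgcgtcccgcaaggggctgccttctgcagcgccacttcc
Nop2 (chr6:125131633-125131882, plus strand): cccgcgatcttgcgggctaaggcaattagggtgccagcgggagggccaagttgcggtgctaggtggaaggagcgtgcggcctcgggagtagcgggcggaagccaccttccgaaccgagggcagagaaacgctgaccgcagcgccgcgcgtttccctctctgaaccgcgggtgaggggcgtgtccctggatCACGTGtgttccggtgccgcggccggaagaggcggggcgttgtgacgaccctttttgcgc
Nop14 (chr5:34660149-34660398, minus strand): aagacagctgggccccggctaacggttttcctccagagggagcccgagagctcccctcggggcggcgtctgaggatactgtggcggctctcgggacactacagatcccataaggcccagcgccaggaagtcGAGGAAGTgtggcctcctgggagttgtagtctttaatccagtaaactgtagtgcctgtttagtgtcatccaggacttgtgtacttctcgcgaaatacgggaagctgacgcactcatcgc
Ncl (chr1:86359456-86359705, minus strand): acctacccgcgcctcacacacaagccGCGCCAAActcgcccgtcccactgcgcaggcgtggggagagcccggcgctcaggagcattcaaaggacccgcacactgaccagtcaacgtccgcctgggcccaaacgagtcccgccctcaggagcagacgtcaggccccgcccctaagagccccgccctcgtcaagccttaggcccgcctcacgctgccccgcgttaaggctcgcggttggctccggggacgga

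Across the 3 induced arrays together, no ribosome biogenesis gene passed the test. By limma with Benjamini-Hochberg adjustment over all 22180 genes, 0 of 44 were lower and 0 of 44 higher at an adjusted p under 0.05, where 1.05% of all genes were lower and 0.374% higher. At an unadjusted p under 0.05, 12 of 44 were lower (16.9% of all genes) and 0 were higher (11.4% of all genes). The measured difference was below 0 for 43 of 44 members, against 44.0% of all genes, with a median of -0.38 over the members and 0.06 over all genes (log2, induced minus uninduced). At the levels of most members the share of all genes below 0 was higher. It was 89.4% for a mean log2 value from 8 to 9 and 92.4% from 9 to 10. Only for Rrp1 did the 3 induced values lie below all 3 uninduced ones, which was so for 15.4% of all genes. In RNA of whole cultures, less RNA per cell and fewer cells with the RNA cannot be told apart.

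The 3 induced arrays were unlike each other. Against the mean of the uninduced arrays, the members' median was -0.02 for array A of the induced group, while arrays B and C of that group gave -0.56 and -0.54. Below that mean lay 27 of 44 members on the first of these arrays, 42 on B and 44 on C. Induced A lay within the range of the 3 uninduced values for 43 of 44 members, while induced B lay below that range for 39 and induced C for 42.

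**Figure D1:**
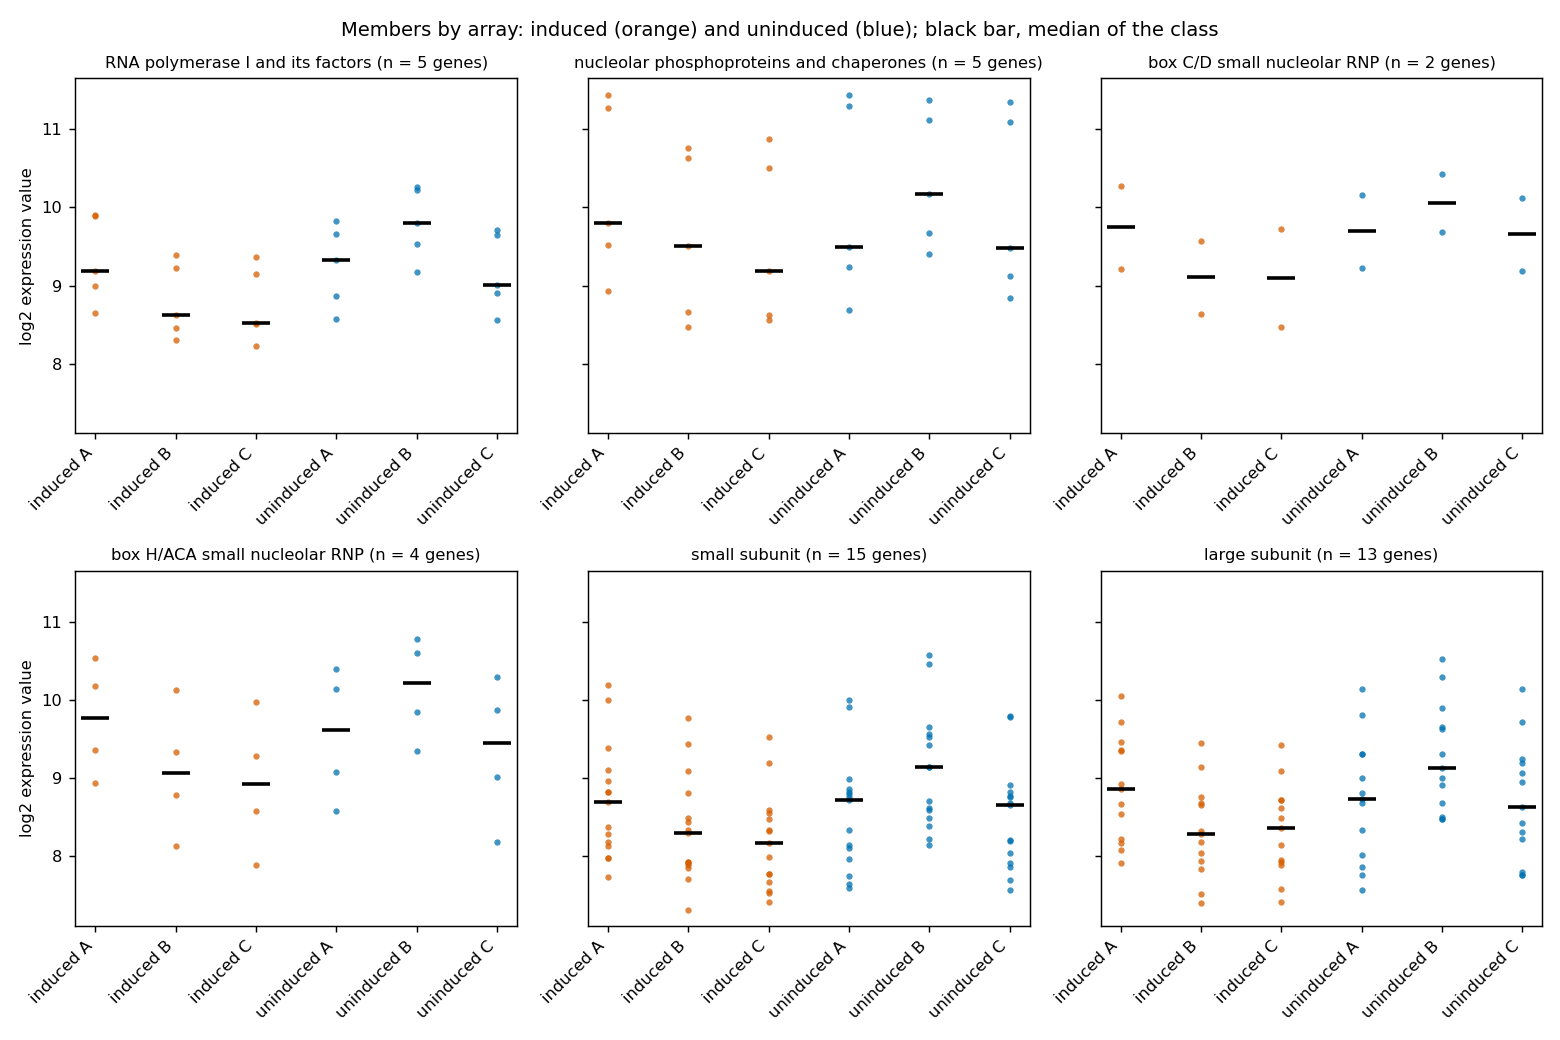
Log2 expression value (vertical axis) of each of the 44 genes on the 6 arrays (horizontal axis), in 1 panel for each role; points are genes, orange for induced and blue for uninduced arrays, and the black bar is the median of the role. In each role uninduced B holds the highest median, and induced B and C lie below induced A.

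The polymerase I genes had measured differences between -0.60 and -0.35, with a median of -0.44 over 5 genes. Rrn3 (chromosome 16, 13780699 to 13814841 in mm10), which encodes the factor TIF-IA that brings the polymerase to the rDNA promoter, was at 9.19, 8.63 and 8.52 in induced A, B and C, against 9.33, 9.80 and 9.01 in uninduced A, B and C. Its groups overlapped, because induced A was above the lowest uninduced sample. This made a difference of -0.60 (SE 0.22, limma adjusted p = 0.14), with an unadjusted 95% interval from -1.09 to -0.10. Ubtf, whose product UBF coats active rDNA, was at 9.89, 9.22 and 9.37 in the induced samples, against 9.66, 10.22 and 9.64 in the uninduced ones. Induced A was here the second highest of the 6 values, and the difference was -0.35 (SE 0.21, adjusted p = 0.259). Polr1a and Polr1b, the catalytic core subunits, differed by -0.44 (SE 0.21) and -0.38 (SE 0.19), and Mybbp1a, whose product represses rDNA transcription and acts in precursor processing, by -0.45 (SE 0.21).

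The nucleolar phosphoprotein and chaperone genes had differences between -0.45 and -0.22. Ncl, nucleolin, was at 11.27, 10.63 and 10.50 in induced A, B and C, against 11.29, 11.37 and 11.10 in uninduced A, B and C. Induced A lay among the uninduced values, and the difference was -0.45 (SE 0.20, adjusted p = 0.167). Npm1, nucleophosmin, a histone and ribosome chaperone, was at 11.44, 10.75 and 10.87 in the induced samples, against 11.44, 11.12 and 11.35 in the uninduced ones. It was the 1 member that was not higher in uninduced B than in the mean of uninduced A and C, at -0.28. Ddx21, an RNA helicase that acts on rRNA transcription and processing, had the smallest difference of this class, -0.22 (SE 0.21), with 9.80, 9.50 and 9.18 in the induced and 9.49, 10.17 and 9.49 in the uninduced samples. Gnl3, nucleostemin, differed by -0.41 (SE 0.24) and Nolc1, a chaperone of small nucleolar RNPs, by -0.32 (SE 0.20).

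The small nucleolar RNPs modify rRNA, and their core proteins had differences between -0.61 and -0.28. Of the box C/D proteins, Nop58 was at 9.22, 8.64 and 8.47 in the induced samples, against 9.23, 9.69 and 9.19 in the uninduced ones, a difference of -0.59 (SE 0.21, adjusted p = 0.13). Its partner Nop56 was at 10.27, 9.57 and 9.72 in the induced samples, against 10.16, 10.42 and 10.12 in the uninduced ones, a difference of -0.38 (SE 0.19) in which induced A was the second highest value. Of the box H/ACA proteins, Dkc1, the pseudouridine synthase dyskerin, was at 10.18, 9.34 and 9.28 in the induced samples, against 10.14, 10.60 and 9.88 in the uninduced ones. Induced A was above 2 of the uninduced values, and the difference was -0.61 (SE 0.25, adjusted p = 0.157). Nop10, the smallest difference of this class, was at 10.54, 10.12 and 9.97 in the induced and 10.40, 10.77 and 10.29 in the uninduced samples, a difference of -0.28 (SE 0.18). Nhp2 and Gar1 lay between them, at -0.40 (SE 0.25) and -0.38 (SE 0.31).

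Among 15 small subunit genes the differences ran from -0.56 to -0.03, with a median of -0.35. Noc4l, whose product pairs with that of Nop14, was at 8.82, 8.44 and 8.32 in induced A, B and C, against 8.80, 9.56 and 8.91 in uninduced A, B and C. Induced A lay just above the lowest uninduced value, and the difference was -0.56 (SE 0.21, adjusted p = 0.139). Heatr1, of the UTP-A complex that loads first on the precursor rRNA, was at 9.39, 9.09 and 8.55 in the induced samples, against 8.82, 9.53 and 8.77 in the uninduced ones. Induced C was the lowest of the 6 values and induced A and B lay inside the uninduced range. The difference was -0.03 (SE 0.25, adjusted p = 0.936), with an unadjusted 95% interval from -0.57 to 0.51. The other UTP-A genes Utp15, Wdr43 and Wdr75 were at -0.47 (SE 0.19), -0.40 (SE 0.26) and -0.31 (SE 0.22).

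The remaining small subunit genes lay between -0.42 and -0.08. Nop14 differed by -0.42 (SE 0.18), Imp4, of the RNP that cuts the first spacer, by -0.40 (SE 0.21), and the acetyltransferase gene Nat10 by -0.40 (SE 0.22). Utp18 was at -0.35 (SE 0.19), the methyltransferase gene Emg1 at -0.35 (SE 0.16), Utp20 at -0.28 (SE 0.20), Utp14a at -0.24 (SE 0.20) and Bysl, which encodes bystin, at -0.23 (SE 0.19). Rrp9 and Rrp12 were nearest to 0 after Heatr1, at -0.16 (SE 0.15) and -0.08 (SE 0.19). Utp14a, Utp18, Utp20, Nop14, Bysl and Rrp12 were in the range of background on induced B and C, and Rrp9 on 1 of them, where a level and a lack of signal cannot be told apart.

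The 13 large subunit genes held both ends of the set. Rrp1 (chromosome 10, 78400362 to 78413043), an early large subunit assembly factor, was at 10.06, 9.45 and 9.42 in induced A, B and C, against 10.15, 10.52 and 10.14 in uninduced A, B and C. The groups did not overlap, and the difference was -0.63 (SE 0.19, adjusted p = 0.114), or 1.54-fold lower. Noc2l (chromosome 4, 156234655 to 156247616), of the Noc complex that escorts the pre-ribosome through the nucleus in yeast, was at 9.72, 9.14 and 9.10 in the induced samples, against 9.81, 10.30 and 9.72 in the uninduced ones. Induced A was within the uninduced range, just above its lowest value, and the difference was -0.62 (SE 0.20, adjusted p = 0.123). Rrs1, which brings the 5S RNP into the pre-ribosome in yeast, was at 8.18, 8.04 and 7.93 in the induced samples, against 7.87, 8.50 and 7.77 in the uninduced ones. All 3 induced values lay between uninduced A or C and uninduced B, and the difference was 0.0023 (SE 0.19, 95% interval from -0.42 to 0.42), the 1 member not below 0.

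The PeBoW complex of large subunit maturation is made by Pes1, Bop1 and Wdr12, at -0.52 (SE 0.22), -0.32 (SE 0.22) and -0.38 (SE 0.23). The rRNA methyltransferase gene Nop2 was at -0.53 (SE 0.24) and Nop16 at -0.46 (SE 0.21), both with an unadjusted p under 0.05. Noc3l, Ppan, Ebna1bp2, Nip7 and Rrp15 were at -0.38, -0.37, -0.32, -0.26 and -0.26, each with an unadjusted p above 0.05. Wdr12 and Rrp15 were in the range of background on induced B and C, and Noc3l and Ebna1bp2 on 1 of them.

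**Figure D2:**
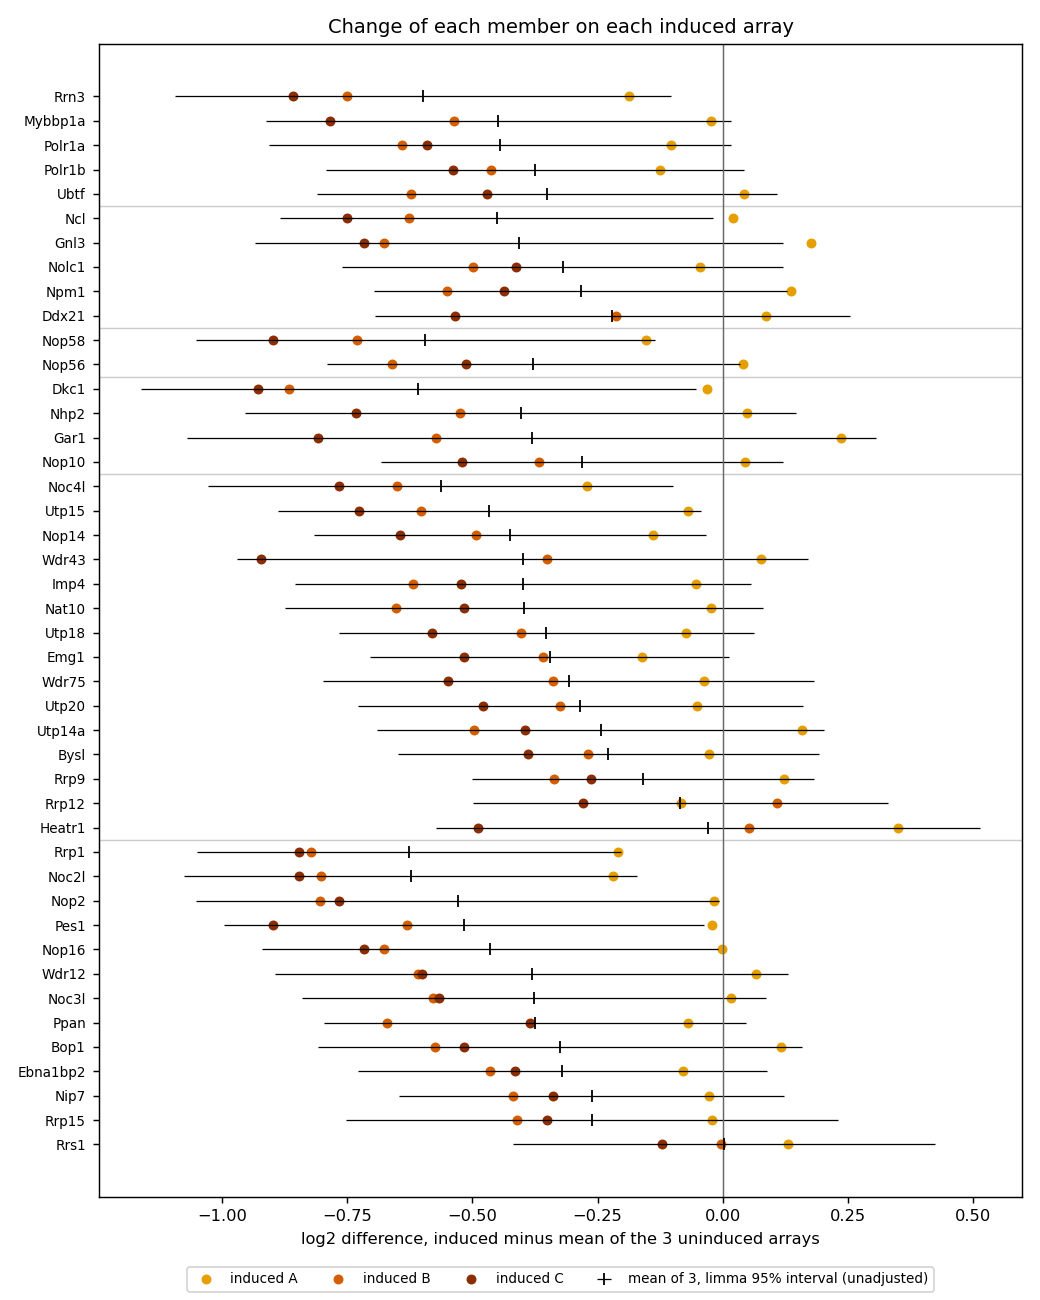
Log2 difference of each of the 44 genes between each induced array and the mean of the 3 uninduced arrays (horizontal axis), by gene (vertical axis, grey lines part the roles); ticks are the mean of the 3 and horizontal lines limma's unadjusted 95% interval. Most values of induced A lie near 0, to the right of those of induced B and C, whose medians are -0.56 and -0.54.

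In the level classes that hold most members, all genes together were also displaced below 0. Among all 3287 genes with a mean log2 value from 8 to 9, the median difference was -0.34 and 89.4% were below 0, and the 19 members in that class had a median of -0.37. Among all 1871 genes from 9 to 10, the median was -0.37 and 92.4% were below 0, against a median of -0.43 for the 16 members there. At an unadjusted p under 0.05, 43.6% of all genes from 8 to 9 were lower and 4 of 19 members, and 47.9% of all genes from 9 to 10 and 7 of 16 members. The 3 induced values lay below the 3 uninduced ones for 36.5% and 37.6% of all genes in these classes, and for 0 of 19 and 1 of 16 members. Outside these classes the gap between members and all genes varied. From 10 to 11, the medians were -0.33 over 2 members and -0.32 over all 791 genes. From 7 to 8, the 5 members had a median of -0.26 with all 5 below 0, and all 4345 genes one of -0.04 with 52.7% below 0. From 11 to 12, the medians were -0.37 over 2 members and -0.21 over all 261 genes.

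Array by array, the members' medians in the classes that hold most members lay above the class median on induced A. On induced B and C they lay below it, by amounts that varied. In the class from 9 to 10, the 16 members had a median of -0.02 on array A of the induced group, where all genes had -0.11, and 12 of the 16 were above that. On array B the members' median was -0.63 and that of all genes -0.51, with 13 of 16 members below. On array C the values were -0.77 and -0.46, with 16 of 16 below. From 8 to 9 the gap was small on array B, with medians of -0.49 over the members and -0.46 over all genes. On array A they were -0.05 and -0.13, and on array C -0.54 and -0.43. In this class 16 of 19 members were above the class median on array A, and 12 of 19 were below it on B and 12 of 19 on C. These positions were not tested.

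With trends in level between arrays removed, the members lay nearer to 0. After cyclic loess over all 22180 genes, which fits and subtracts such trends, the members' median was -0.06 and 32 of 44 were below 0, against 49.5% of all genes. Their values then ran from -0.27 for Rrp1 to 0.33 for Heatr1, with none past the threshold by limma (lowest adjusted p = 0.253, and 1 member at an unadjusted p under 0.05).

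**Figure D3:**
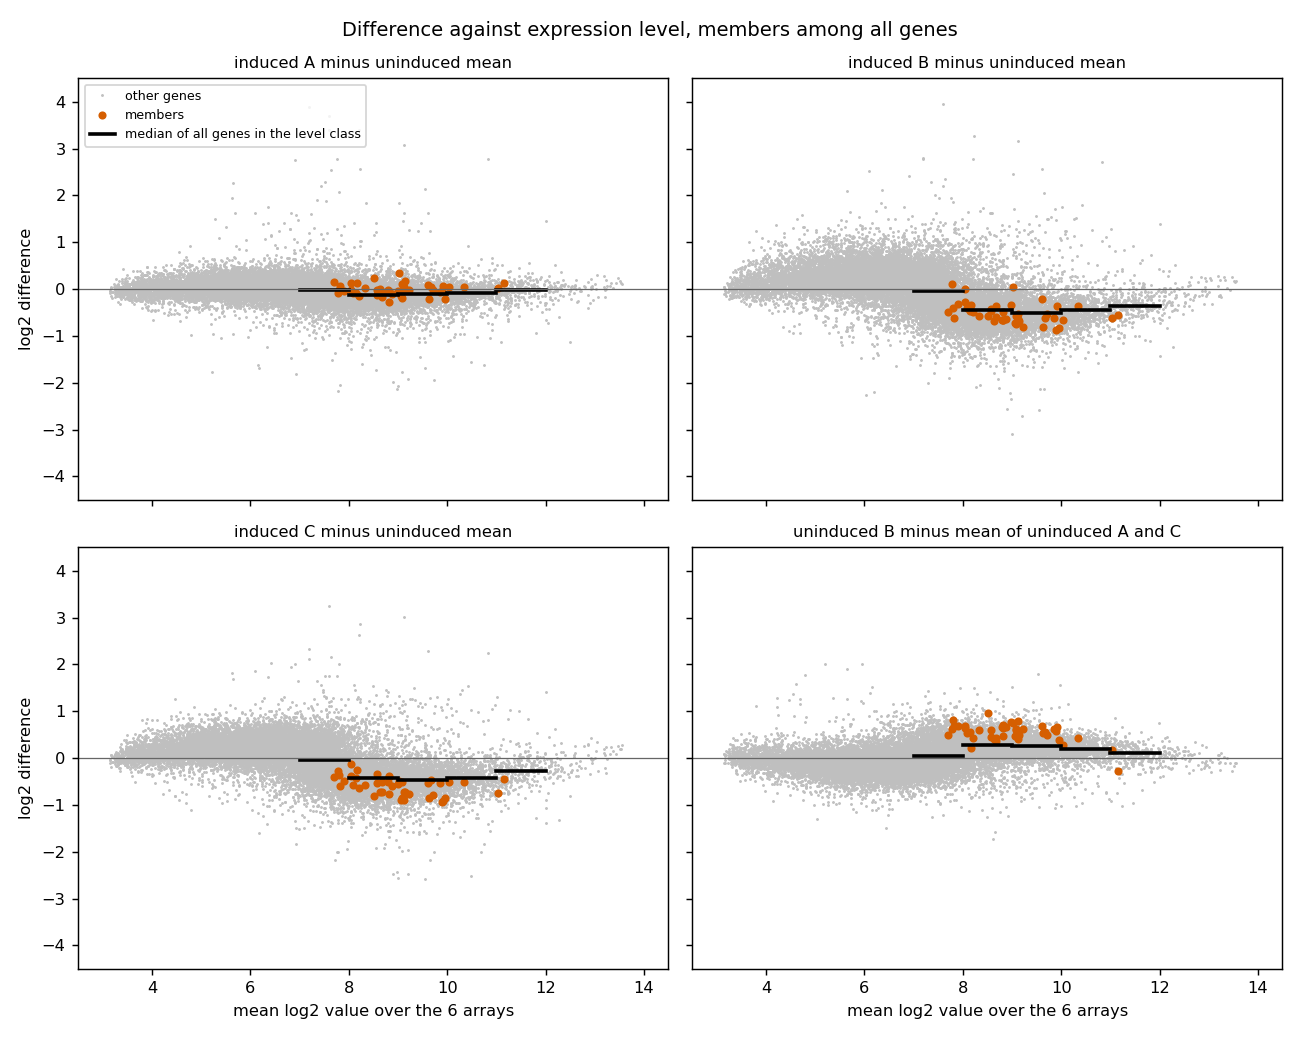
Log2 difference (vertical axis) against the mean log2 value over the 6 arrays (horizontal axis) for all 22180 genes in grey and the 44 members in orange, with the median of all genes in each level class as a black bar. Most members lie above the bars in the panel of induced A and below them in those of induced B and C; in the fourth panel, uninduced B against the mean of uninduced A and C, most lie above.

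Ribosome biogenesis genes were high on uninduced B. Of the 44 members 43 were higher there than in the mean of uninduced A and C, and all of these 43 had their highest value of the 6 arrays on it. The median excess was 0.59, with a range from -0.28 for Npm1 to 0.97 for Gar1, while all genes from 8 to 9 had a median excess of 0.27 and all genes from 9 to 10 of 0.25. The same arrays stood out by rank. The median member was at percentile 85.6, 83.1 and 83.1 of all genes in induced A, B and C, and at percentile 83.4, 88.2 and 83.4 in uninduced A, B and C. After cyclic loess the members' median was 8.94, 8.78 and 8.77 in the induced samples, against 8.77, 9.16 and 8.78 in the uninduced ones. No label says in what uninduced B or induced A differed, and the part of culture or hybridization in this was not tested.

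**Figure D4:**
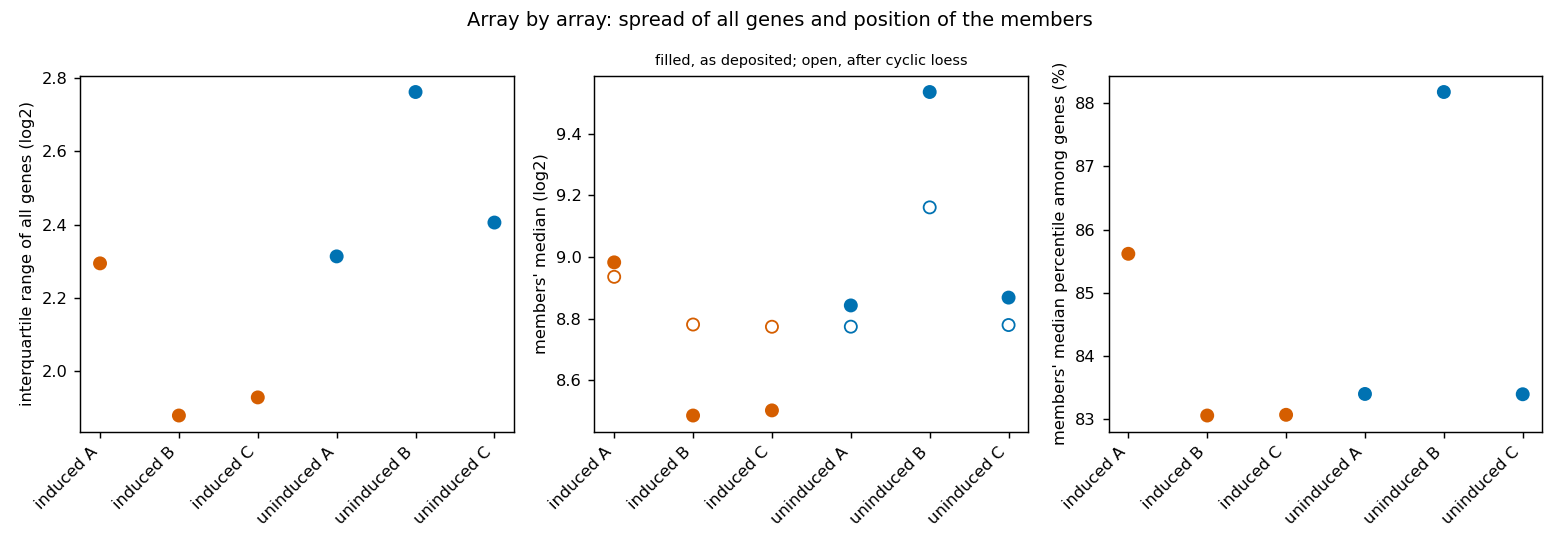
Interquartile range of all 22180 genes, median log2 value of the 44 members and their median percentile among all genes (vertical axes) for the 6 arrays (horizontal axes), orange for induced and blue for uninduced; open points are values after cyclic loess. Uninduced B is highest in all 3 panels, and by percentile induced A is next.

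Leaving out single arrays moved the count of calls. Without induced A, 17 of 44 members were lower at an adjusted p under 0.05, where 15.9% of all genes were, led by Dkc1 at -0.90 and Rrp1 at -0.83, and with Polr1a, Rrn3, Ncl, Npm1, Nop56 and Nop58 among them. Array weights, at 3.46 for induced C and 4.60 for uninduced C and between 0.31 and 0.93 for the others, called 30 of 44 members lower, and 25.6% of all genes. Without uninduced B the members' median was -0.18 and none was called. With induced A alone against the 3 uninduced arrays it was -0.02, which is 1 array in that group and is given as a value only.

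Measured against the other members on the same array, a few genes did not overlap between the groups. When each array's median over the 44 members was subtracted, the 3 induced values of Noc2l and Noc4l lay below all 3 uninduced values, which was so for 1.31% of all genes. Noc2l was then at 0.74, 0.65 and 0.59 in induced A, B and C, against 0.97, 0.76 and 0.85 in uninduced A, B and C. Rrs1, Heatr1, Rrp9, Ddx21, Bysl, Utp14a and Utp20 lay above, as did 9.52% of all genes. Of these, Bysl, Utp14a and Utp20 were in the range of background on induced B and C, and Rrp9 on 1 of them. There a relative rise and a lack of signal cannot be told apart. Heatr1 was at 0.41, 0.61 and 0.05 in the induced samples, against -0.02, -0.0021 and -0.10 in the uninduced ones, and Rrs1 at -0.80, -0.44 and -0.58 in the induced samples, against -0.97, -1.03 and -1.10 in the uninduced ones. These members were singled out after their values were seen, and no test was run on the relative values. The shares of all genes are after subtracting the same members' medians, so they are no like baseline for members set against themselves.

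For 5 members other transcript clusters could be set beside the one used. Both clusters of Ppan gave like differences, -0.37 and -0.38, and so did those of Npm1, -0.28 and -0.27, the dimmer one in the range of background on 2 arrays. The other cluster of Rrs1 was at -0.12 and that of Ddx21 at -0.10, in the range of background on 2 and on 5 arrays. The 3 clusters of Nop56 disagreed: the brightest was at -0.38, the next at 0.46, and the dimmest, in the range of background on 5 arrays, at -1.78.

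Other genes of the pathway, from lists by role, also had medians below 0 and no call. Of 15 other polymerase I subunits and factors 14 were below 0 (median -0.38), of 35 other small subunit factors all 35 (median -0.42), of 40 other large subunit factors 37 (median -0.38), and of 11 exosome genes, whose products trim rRNA, all 11 (median -0.34). Of 17 genes of RNA polymerase III, which makes tRNA and 5S rRNA, all 17 were below 0 (median -0.39). In each list 0 were called lower and 0 higher by limma, where 1.05% of all genes were lower and 0.374% higher. At an unadjusted p under 0.05, 9, 18, 15, 3 and 9 were lower and 0 higher, in the order given. Of all genes, 44.0% were below 0 and 16.9% lower at that unadjusted p. For all genes with a mean log2 value from 8 to 9 these shares were 89.4% and 43.6%, and from 9 to 10 they were 92.4% and 47.9%. Imp3, a partner of Imp4, was at 10.27, 9.55 and 9.36 in induced A, B and C, against 10.42, 10.72 and 10.35 in uninduced A, B and C, a difference of -0.77 (SE 0.22, adjusted p = 0.102) and -0.42 after cyclic loess. It had the most negative difference of the 10 genes given here as the brightest 2 of each list. Nob1, the nuclease of small subunit maturation, was at -0.55, and the other 8 were nearer to 0. Of the polymerase lists, Polr3b and Gtf3c2 (polymerase III) were at -0.44 and -0.39, and Polr2f, a subunit shared by the polymerases, and Taf1d at -0.44 and -0.33. Nsa2 and Eif6 of the large subunit were at -0.41 and -0.34, and the exosome genes Exosc10 and Exosc1 at -0.20 and -0.13. After cyclic loess the medians of the 5 lists, in the same order, were -0.10, -0.14, -0.05, -0.10 and -0.13.

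Myc was at 10.49, 10.41 and 10.09 in the induced samples, against 10.62, 11.07 and 10.60 in the uninduced ones. Its 3 induced values lay below all 3 uninduced ones, but the difference of -0.43 (SE 0.17, limma adjusted p = 0.148) did not pass the test and was -0.11 after cyclic loess. Spi1, at 0.31 in the deposited values, was at 0.67 after cyclic loess (limma adjusted p = 0.0915), which did not pass either.

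In the promoter windows, which run from 250 bases before to 50 after each annotated start, 41 of the 46 genes had a sequence. CACGTG was found in 9 of these 41, or 22.0%, and in 8.09% of 27025 genes with a window. The 9 were Imp4, Mybbp1a, Nop2, Pes1, Rrn3, Tsr1, Utp18, Utp20 and Wdr43, and Rrn3 alone held it at 2 places, as printed above. GAGGAAGT, on either strand, was found in 7 members (17.1%, against 3.69% of all genes), namely Nip7, Noc2l, Noc3l, Nop14, Pes1, Rrp15 and Wdr43. TTTCCCGC was in Nolc1 and Nop58 (4.88%, against 1.24%) and TTTGGCGC in Ncl (2.44%, against 0.585%). The members' windows were richer in G and C, with a median of 58.0% and 21 CpG against 52.7% and 7 over all genes, and whether this sets the shares was not tested. The 8 measured members with CACGTG had a median difference of -0.42 and the 32 without it of -0.38, with ranges that overlapped, from -0.60 to -0.28 and from -0.63 to -0.03.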

How the data were processed

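RNA of 6 samples was measured on 1-colour arrays. The authors deposited 1 log2 expression value for each of 41345 transcript clusters and array; Partek and the build mm10 are named per the submitters' processing notes, but how arrays were corrected, normalized and summarized is not given in the sources used here. The log2 scale was read from the values (2.86 to 14.03). Gene symbols are those of the array's annotation in GEO and may be dated: 23521 carried 1 symbol, 1814 several, and 16010 were not listed. Groups came from the sample titles.

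Induced minus uninduced was fitted across all genes in R 4.3.3 by limma 3.58.1 (two-sided, lmFit then eBayes, without covariates or a filter) and adjusted by Benjamini-Hochberg over 22180 genes at 0.05. The fit was tested on simulated data with independent noise in each value. These held no shift of a whole array, so the test does not cover the array differences described above. Both groups carry replicate letters (A to C) of unstated meaning. Deviations of same-lettered arrays from their group means correlated at -0.31 (A), -0.28 (B) and 0.42 (C) over all genes, so letters were taken not to pair samples. The highest of the 9 correlations between the groups was 0.52, for induced A with uninduced B, and its cause was not tested. The members, lists, motifs and tests were chosen with earlier results of these data known. All members could be named; in each role the ones with the lowest and highest difference are given array by array, since none passed. Other lists, with none past the threshold, give the 2 genes with the highest mean. Npm1 and Noc2l are given by array as exceptions chosen after their values were seen. Alternatives covered a replicate block, normalization, filters, moderation, array weights, rows per gene and leaving out arrays. The number of arrays limits the precision.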

Additional observations from a re-analysis of the deposited data

How the results depend on the processing

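Of 44 members 0 were lower at an adjusted p under 0.05, and the count was 30 with array weights, 12 at an unadjusted p under 0.05 and 0 to 17 with single arrays left out, the highest without induced A. Of all genes, whatever their level, 25.6% were lower with array weights, 16.9% at the unadjusted p and 15.9% without induced A. No member was called higher under any alternative run. The median of the members (-0.38) ran between -0.57 without induced A and -0.02 with induced A alone. With the letters as a replicate block, 425 of all genes were lower and 174 higher, against 232 and 83, with no member among them (lowest limma adjusted p = 0.0841); the letters were not shown to pair samples. Of all genes, 118 were lower after cyclic loess, 51 higher after median centring, 5681 lower and 5825 higher with array weights, 44 lower and 36 higher with all transcript clusters tested, and 19 lower and 41 higher with induced A alone. Single arrays left out gave 47 to 3535 lower and 45 to 1998 higher. The cause of these moves was not tested; induced A alone is 1 array, with the spread taken from the uninduced arrays, so its counts of calls say nothing on stability.

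Differences of the other sign, none past the threshold in the deposited values, were found as follows (log2). Cyclic loess turned 11 members: Ubtf 0.017, Nolc1 0.028, Ddx21 0.15, Nop10 0.058, Wdr75 0.051, Heatr1 0.33, Rrp9 0.099, Bysl 0.0019, Rrp12 0.073, Bop1 0.038 and Nip7 0.062. Induced A alone turned 16: Ubtf 0.043, Npm1 0.14, Ncl 0.021, Gnl3 0.18, Ddx21 0.086, Nop56 0.040, Nhp2 0.048, Gar1 0.24, Nop10 0.045, Utp14a 0.16, Wdr43 0.075, Heatr1 0.35, Rrp9 0.12, Bop1 0.12, Wdr12 0.067 and Noc3l 0.017. Quantile normalization over all transcript clusters turned Ddx21 0.0077 and Heatr1 0.18. Quantile normalization over the named genes, added after the data were seen, left 108 genes lower and turned 10: Nolc1 0.013, Ddx21 0.10, Nop10 0.031, Wdr75 0.026, Heatr1 0.30, Rrp9 0.090, Bysl 0.0011, Rrp12 0.093, Bop1 0.011 and Nip7 0.062. Rrs1 was at -0.059 as the mean of its transcript clusters and at -0.11 after median centring. With single arrays left out, the values that changed sign ran as follows: Ddx21 -0.37 to 0.0079, Heatr1 -0.22 to 0.22, Rrp12 -0.21 to 0.12, Rrp15 -0.45 to 0.012, Rrs1 -0.14 to 0.23. Members within the range of background on induced B or C, 11 in all, are limited by signal.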
